A study of Bos taurus with 6 samples.

Results

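Fat cells need NADPH, the reduced coenzyme that drives each round of fatty acid synthesis. The genes described here encode the enzymes that supply it or feed that supply: PGLS, PGD, RPIA, TKT and TALDO1 of the pentose phosphate pathway, the malic enzymes ME1 and ME3, the cytosolic isocitrate dehydrogenase IDH1 and the cytosolic malate dehydrogenase MDH1. They were chosen by symbol, as a list of 9 enzymes, and 8 of the 25444 rows of the mRNA count data carry these symbols. TALDO1, the transaldolase of the non-oxidative branch, was not analysed here because no row carried its symbol.

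Intramuscular fat (IMF) of Chinese Qinchuan cattle had been dissected from the sternomandibularis muscle at 24 months of age, in castrated males (CM, called steers here, castrated surgically at 6 months) and in intact males (IM, called bulls). All animals had been weaned at 3 months and shared 1 feeding plan, and the paper's methods give a single sire for them. Total RNA was pooled within each group into 1 library, from 6 animals according to the series' design text and from 3 according to the sample labels. The libraries summed to 12677375 counts in steers and 9868415 in bulls. No group had a replicate library, so each test below compared the reads of 2 pools and not castration with its absence.

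In the pentose phosphate pathway, glucose-6-phosphate is oxidised to a pentose phosphate while NADP is reduced. PGLS opens the lactone formed in the first oxidation, and PGD carries out the second oxidation, which yields NADPH. RPIA and the epimerase RPE then interconvert the pentose phosphates, and TKT and TALDO1 return them to glycolysis, so that these enzymes do not reduce NADP themselves. ME1 makes NADPH in the cytosol by turning malate into pyruvate, and ME3 does so in mitochondria. IDH1 makes cytosolic NADPH from isocitrate. MDH1 makes none, but it produces the malate that ME1 consumes. In fat of ruminants, in which acetate rather than glucose is the main carbon source, the pentose phosphate pathway and IDH1 are held to provide most of the NADPH.

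PGLS, PGD and TKT were higher in the steers pool by closely similar amounts, 1.44-fold to 1.48-fold. For PGD, 2634 counts were found in steers and 1670 in bulls, or 2525 and 1742 after scaling with size factors of 1.04 and 0.959 (median-of-ratios, which set the middle gene near a ratio of 1). Its log2 fold change, steers over bulls, was 0.54 (95% interval 0.45 to 0.62). TKT, with 8686 and 5397 counts, had by far the narrowest interval, at 0.56 (0.52 to 0.61). PGLS, the lactonase, was at 0.52 (0.33 to 0.73), from 534 and 341 counts. All 3 passed the exact binomial test with Benjamini-Hochberg adjustment over all genes, with adjusted p of 1.03e-31 for PGD, 1.25e-113 for TKT and 9.01e-07 for PGLS. The intervals are Clopper-Pearson intervals. They and the p-values cover counting error only, and reads are not independent molecules.

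RPIA, the isomerase, was not called. Its counts were 180 in steers and 151 in bulls, or 173 and 158 after scaling. Its fold change was 0.13 on the log2 scale (-0.19 to 0.45), and its adjusted p in the exact binomial test was 0.643. When the libraries were scaled by their total counts instead, the value of RPIA turned to -0.11.

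**Figure D1:**
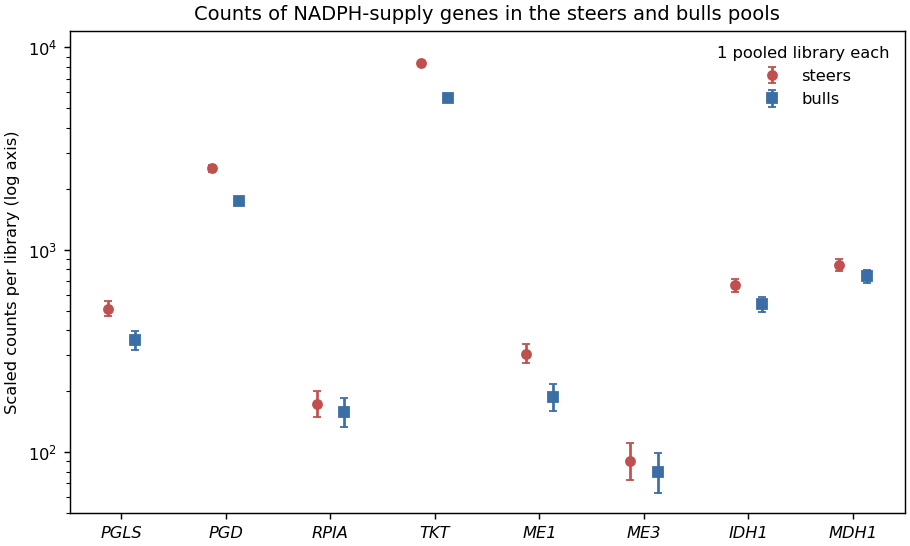
Scaled counts (vertical axis, logarithmic) of the 8 genes in the pooled library of steers (circles) and of bulls (squares), with exact 95% Poisson intervals that cover counting error. The points of TKT, PGD, PGLS and ME1 are clearly apart, while those of RPIA and ME3 overlap within their intervals. Heights of different genes are not comparable, since counts were not divided by transcript length.

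Of the malic enzymes, ME1 showed the largest difference among the 8 genes. Its 320 counts in steers against 179 in bulls made a 1.64-fold difference (interval 1.36 to 1.98), or 0.71 on the log2 scale. The adjusted p of ME1 was 5.36e-07 in the exact binomial test. ME3 had 94 and 76 counts, the fewest of the 8, and its log2 fold change of 0.18 (-0.27 to 0.64) had an adjusted p of 0.653. The value of PGD lay within the interval of ME3. ME2, the mitochondrial malic enzyme that mainly uses NAD, was at -0.02 (-0.22 to 0.18), with 413 and 385 counts.

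The 2 dehydrogenases that stand next to the citric acid cycle differed less between the pools. IDH1 was 1.24-fold higher in steers (1.11 to 1.40), with 695 and 514 counts and an adjusted p of 0.000837 in the exact binomial test. MDH1, with 879 and 709 counts, was 1.14-fold higher in steers (1.03 to 1.26), with an adjusted p of 0.0296 in the same test, but it was lower in steers, at -0.05 on the log2 scale, when total counts set the scaling. With total counts IDH1 was at 0.07 (log2) and no longer passed the test.

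The study's threshold asks for more than a 2-fold difference beside an adjusted p under 0.05. By that rule 0 of the 8 genes were called in either direction. Among all 17752 genes with a count in either library, 4.35% were called higher in steers and 8.08% lower. With the adjusted p alone, 6 of the 8 genes were called higher in steers (PGD, PGLS, TKT, ME1, IDH1 and MDH1) and 0 lower, compared with 19.9% of all genes called higher and 18.3% called lower. Small differences pass a counting test more often in well-counted genes. Among the 9097 genes with at least 170 counts over both libraries, the number of ME3, 31.7% were called higher and 23.5% lower by the same rule. The median log2 fold change of the 8 genes was 0.42, compared with 0.01 over all genes and 0.05 over those with at least 170 counts. ME1 lay above 83.2% of all genes tested, TKT above 79.1%, PGD above 78.3% and PGLS above 77.9%. IDH1 lay above 68.4%, MDH1 above 61.3%, ME3 above 60.9% and RPIA above 57.6%.

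**Figure D2:**
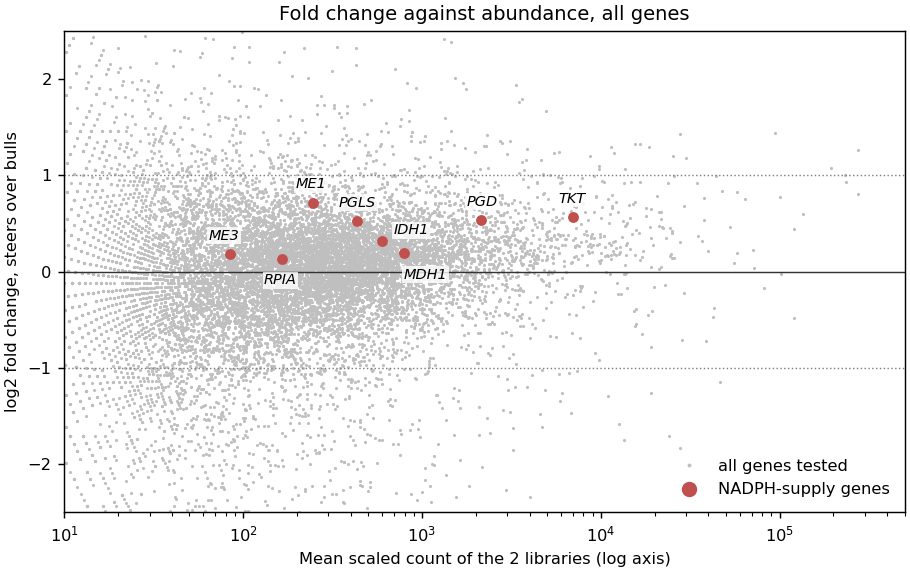
Log2 fold change, steers over bulls (vertical axis), against the mean scaled count of both libraries (horizontal axis, logarithmic), with 1 grey point per gene and the 8 NADPH-supply genes as large points. Dotted lines mark a 2-fold difference. The frame shows 13047 genes with a mean of at least 10, and 4705 genes lie outside it. The 8 genes sit between 0.13 and 0.71, all inside the dotted lines, under median-of-ratios scaling; with total counts RPIA, ME3 and MDH1 move below 0.

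The choice of scaling mattered for these moderate differences. Scaling by total counts moved the median of all genes from 0.01 to -0.23 and every gene down with it. With total counts, 4 of the 8 genes were called higher in steers, PGD at 0.30, PGLS at 0.28, TKT at 0.33 and ME1 at 0.48, where 10.5% of all genes were called higher. RPIA, ME3 and MDH1 were then at -0.11, -0.06 and -0.05. Of all 17752 genes, 5369 were called lower with this scaling. The 10.5% called higher and these 5369 called lower are the background for the calls with total counts in the lists below. In counts as sequenced, the 8 genes together took 0.111% of the library of steers (0.109% to 0.112%) and 0.0916% of that of bulls (0.0897% to 0.0935%, exact binomial intervals). TKT made up 61.9% of these counts in steers and 59.7% in bulls. The spread assumed between pools mattered more. An edgeR exact test with an assumed biological coefficient of variation of 0.1 called TKT and ME1 alone among the 8 genes. With 0.2 or 0.4 it called 0 of the 8. Few genes of any kind passed: of all 17752 genes, 1294 were called higher in steers with 0.1, 368 with 0.2 and 52 with 0.4. The spread between pools of animals was not measured in the mRNA data.

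**Figure D3:**
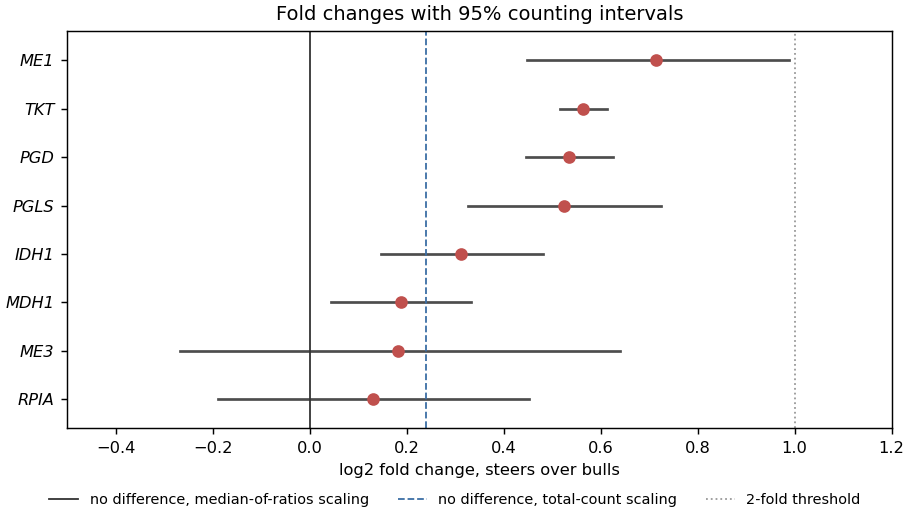
Log2 fold change, steers over bulls (horizontal axis), of each gene under median-of-ratios scaling, with its 95% counting interval as a bar. The solid line marks no difference under this scaling, the dashed line marks where no difference lies when total counts set the scaling, and the dotted line marks a 2-fold difference. The bars of ME1, TKT, PGD and PGLS lie to the right of both lines of no difference, those of IDH1 and MDH1 cross the dashed line, and those of ME3 and RPIA cross both.

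Ratios between genes of the same library do not depend on how the libraries were scaled, so the genes were also compared with each other. The fold changes of TKT, PGD and PGLS differed from one another by 0.01 to 0.04 on the log2 scale. The widest of these intervals, PGD less PGLS, ran from -0.21 to 0.23. ME1 less TKT was 0.15 (-0.12 to 0.43), so ME1 was not set apart from the 3 pentose phosphate genes at this depth. By contrast, the fold change of TKT exceeded that of RPIA by 0.43 (0.11 to 0.76), and PGD and PGLS exceeded RPIA by 0.40 (0.07 to 0.74) and 0.39 (0.01 to 0.77). TKT exceeded IDH1 by 0.25 (0.08 to 0.43) and MDH1 by 0.38 (0.22 to 0.53). ME1 exceeded MDH1, whose product it uses, by 0.53 (0.22 to 0.84). ME1 less ME3 was also 0.53, but with an interval of -0.00298 to 1.06. Among IDH1, MDH1, ME3 and RPIA every interval of a difference included 0. In all, 11 of the 28 pairs had an interval that left out 0. No p-values were computed for these pairs, and the intervals were not widened for their number.

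**Figure D4:**
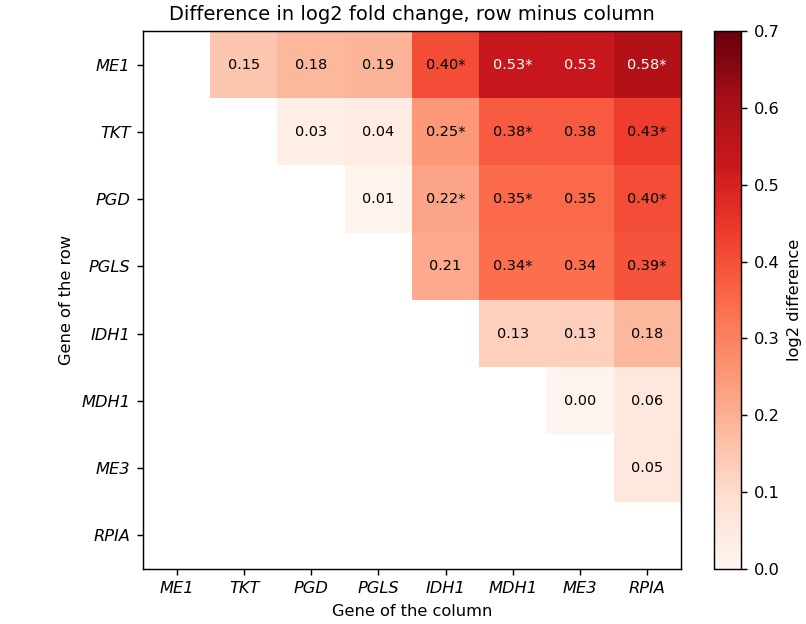
Difference in log2 fold change between each pair of genes, the gene of the row minus the gene of the column (colour and printed value), with an asterisk where the 95% counting interval leaves out 0. Genes are ordered from the largest fold change to the smallest. The asterisks lie where ME1, TKT, PGD or PGLS meets IDH1, MDH1 or RPIA, except for PGLS with IDH1, and ME3 has none.

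The other genes of the pentose phosphate pathway and of ribose metabolism were mixed. Of 11 such genes with counts, 1 was called higher in steers by the adjusted p alone, 4 lower and 6 in neither direction, and their median log2 fold change was -0.11. Over all genes 19.9% were called higher and 18.3% lower by this rule. With total counts 0 were called higher and 6 lower, with a median of -0.35. Among all 17752 genes that scaling called 5369 lower, with a median of -0.23. RPE, the epimerase that works beside RPIA, had 58 and 60 counts and a value of -0.17 (-0.72 to 0.37). TKT less RPE was 0.74 (0.19 to 1.28), and RPIA less RPE was 0.30 (-0.34 to 0.94). H6PD, which carries out the oxidative steps inside the endoplasmic reticulum, was at 0.26 (0.00445 to 0.51, adjusted p = 0.106 in the exact binomial test). PGM1, a phosphoglucomutase at the entry to glycogen, was the one called higher, at 0.33 (0.23 to 0.44), a call lost with total counts. The kinases of ribose and of sedoheptulose, RBKS and SHPK, were called lower at -0.69 and -0.54, as were PGM2 at -0.50 and PRPSAP1, which binds the enzyme that activates ribose phosphate for nucleotide synthesis, at -1.43 (-1.72 to -1.16). TKTL1, a relative of TKT, was scarce, at 12 counts in steers against 2 in bulls. The interval of its log2 ratio ran from 0.30 to 5.66, and it was not called.

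The route that brings citrate out of mitochondria and returns pyruvate, which runs through MDH1 and ME1, was mostly higher in the steers pool. Of 11 genes with counts, 8 were called higher in steers by the adjusted p alone and 0 lower, and their median was 0.45. Among all genes the shares were 19.9% higher and 18.3% lower. With total counts 6 were called higher and 3 lower, with a median of 0.21. SLC25A1, the citrate carrier, was at 1.97 (1.84 to 2.09) with 2818 and 662 counts. The paper names SLC25A1 among its changed genes in these libraries, so it is no independent evidence of direction. ACLY, which splits citrate in the cytosol, was at 0.71 (0.60 to 0.83), and ME1 less ACLY was 0.01 (-0.29 to 0.30). The pyruvate carrier subunits MPC1 and MPC2 were at 0.83 (0.68 to 0.98) and 0.45 (0.21 to 0.70), and pyruvate carboxylase, PC, was at 0.49 (0.34 to 0.63). MDH2, the mitochondrial partner of MDH1, was at 0.36 (0.28 to 0.44), and MDH1 less MDH2 was -0.17 (-0.33 to -0.00201). ACO1, the cytosolic aconitase that makes the isocitrate used by IDH1, was at -0.06 (-0.18 to 0.06), so that IDH1 exceeded it by 0.37 (0.17 to 0.58). ME1 exceeded ME2 by 0.74 (0.40 to 1.08), a comparison between the cytosolic and a mitochondrial malic enzyme.

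Other sources of NADPH, listed together with enzymes that work beside them, were mixed. Of 10 genes with counts, 5 were called higher and 2 lower by the adjusted p alone, beside 19.9% and 18.3% of all genes. Their median was 0.24. With total counts 1, MTHFD1L, was called higher and 2 lower, with a median of 0.01. The folate enzymes MTHFD1 and MTHFD1L were at 0.44 (0.27 to 0.62) and 0.66 (0.37 to 0.96). MTHFD1L is a formyltetrahydrofolate synthetase and does not reduce NADP itself. NADK, which makes NADP from NAD, was at 0.25 (0.13 to 0.37). NNT, the mitochondrial transhydrogenase, was lower in steers at -0.42 (-0.58 to -0.26), as was the mitochondrial formyltetrahydrofolate dehydrogenase ALDH1L2 at -0.39 (-0.60 to -0.18). ALDH1L1, its cytosolic counterpart, had 34 and 12 counts and a value of 1.34 (0.40 to 2.47).

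Most enzymes that spend NADPH on lipids were higher in the steers pool. Of 12 genes with counts, 11 were called higher in steers by the adjusted p alone and 3 of them past the 2-fold threshold, with a median of 0.85. The shares of all genes called higher by these rules were 19.9% and 4.35%. The one not called, FDFT1, was at 0.12. With total counts 10 of the 12 were called higher and 0 lower, with a median of 0.61. The genes called higher under both scalings include the desaturases FADS1 at 0.82 and FADS2 at 0.88, which draw electrons mainly from NADH. FASN, the fatty acid synthase, rose from 5496 counts in bulls to 58834 in steers. Its log2 fold change exceeded that of each supply gene: ME1 less FASN was -2.58 (-2.85 to -2.31), TKT less FASN was -2.73 (-2.80 to -2.67) and PGD less FASN was -2.76 (-2.86 to -2.66), while RPIA less FASN was -3.17 (-3.49 to -2.84). HSD17B12 and TECR, the 2 reductases of fatty acid elongation that use NADPH, were at 1.73 (1.45 to 2.03) and 0.55 (0.45 to 0.65). The paper picked FASN and HSD17B12 from these libraries. For FASN it also reports significantly higher expression in steers by qRT-PCR. POR, which passes electrons from NADPH to cytochromes P450, was at 0.17 (0.05 to 0.28), near MDH1 at 0.19.

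Enzymes that spend NADPH on redox defence were mixed. Of 10 genes with counts, 4 were called higher and 1 lower by the adjusted p alone, beside 19.9% and 18.3% of all genes. Their median was 0.30. With total counts 2 were called higher and 3 lower, with a median of 0.06. NQO1 was at 0.87 (0.59 to 1.16), while glutathione reductase, GSR, was at -0.04 (-0.44 to 0.36) and thioredoxin reductase TXNRD1 at -0.16 (-0.34 to 0.02). PGD, TKT and ME1 are also known targets of NFE2L2, the transcription factor of the oxidative stress response. The 10 genes of an NFE2L2 list, which shares NQO1 and TXNRD1 with the redox list, had a median of -0.01, with 2 called higher and 3 lower. With only 10 genes, this split is near the shares of all genes, 19.9% higher and 18.3% lower. With total counts the list had a median of -0.25, with 1 called higher and 4 lower. NFE2L2 itself was lower in steers at -0.49 (-0.66 to -0.33), as were HMOX1 at -0.84 and GCLC at -1.13 (-1.57 to -0.70), the last of these enzymes catalysing the first step of glutathione synthesis. In the list 5 genes lay above 0 and 5 below. Those called higher were NQO1 and KEAP1, an inhibitor of NFE2L2, at 0.20 (0.07 to 0.33). GCLM, the partner subunit of GCLC, was at 0.49 and was not called. A part of NFE2L2 in the values of PGD, TKT and ME1 was not tested. Among 8 lipogenic regulators, 7 were called higher by the adjusted p alone, beside 19.9% of all genes, with a median of 0.28. With total counts 2 of them, INSIG1 and THRSP, were called higher, and the median was 0.04. SREBF1, a known activator of lipogenic and NADPH-supplying genes, was at 0.25 (0.15 to 0.34) and THRSP at 1.94 (1.85 to 2.03). INSIG1, which holds SREBF1 back rather than activating it, was at 2.97 (2.72 to 3.23), and the paper also picked it from these libraries. MLXIPL, the carbohydrate response factor, had 51 and 55 counts and a value of -0.23 (-0.81 to 0.35).

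**Figure D5:**
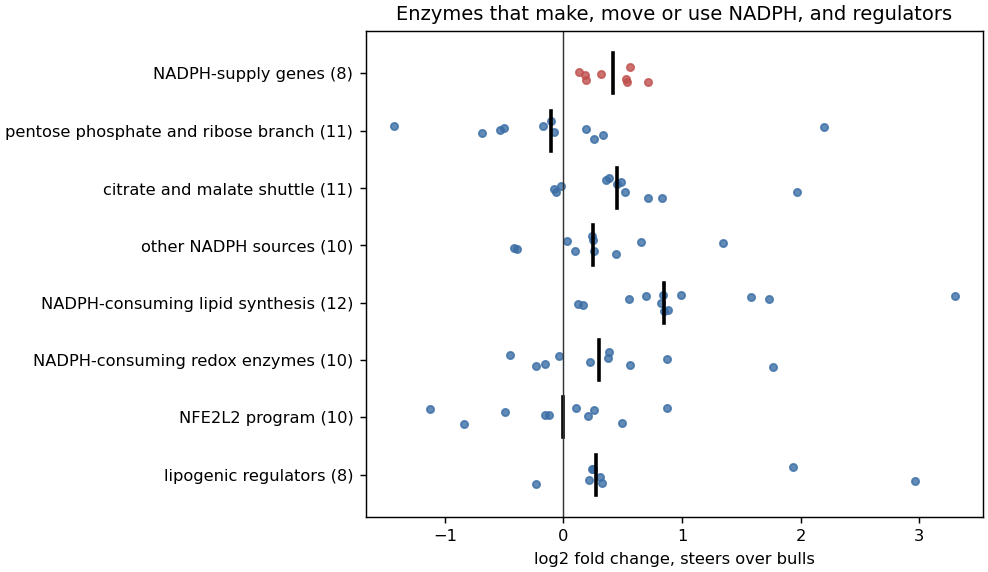
Log2 fold change, steers over bulls (horizontal axis), of each gene (point) of the 8 NADPH-supply genes and of 7 further gene lists, with the number of genes in parentheses and the list median as a vertical bar. Points are spread vertically only for legibility. The supply genes span 0.13 to 0.71 with a median of 0.42 under median-of-ratios scaling. This lies between the medians of the redox enzymes at 0.30 and of the citrate and malate shuttle at 0.45. The median of lipid synthesis is 0.85. With total counts all points shift by -0.24.

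The pools also differed in markers of cell types, and fewer cells of a type cannot be told apart from less RNA per cell in such tissue. Adipocyte markers were present, and the 8 of 10 listed markers with counts took 0.275% of all counts in the steers pool and 0.401% in the bulls pool. By the adjusted p alone 4 were called lower in steers, among them ADIPOQ with 4513 and 6651 counts, 1 was called higher (CIDEC, with 9931 and 7501 counts), and 3 (LEP, LIPE and AQP7) neither. By this rule 19.9% of all genes were called higher and 18.3% lower, which is the background for each marker list. With total counts 7 of the 8 were called lower and 0 higher, beside 5369 of all 17752 genes called lower. Skeletal muscle markers, 10 of 10, took 0.241% and 0.432%, and they did not share a direction: 2 were called higher in steers by the adjusted p alone (MYH1, with 247 and 102 counts, and TNNI2, with 983 and 649), 5 were called lower, among them MYH7 with 675 and 2906 counts, and 3 neither. Of 13 myeloid markers 12 had counts, and all 12 were called lower in steers by the adjusted p alone, at 0.264% and 0.868% of the counts, and none was at 0. T lymphocyte markers, of which 9 of 10 were called lower, summed to 182 and 1051 counts, with CD3G at 0 in steers. B lymphocyte markers summed to 24 and 93 counts and erythroid markers to 37 and 8. Endothelial markers took 0.0724% and 0.0879%, and 6 genes of fibroblasts and matrix took 9.02% in steers and 5.43% in bulls. Most counts of these 6 genes came from COL1A1, COL1A2 and COL3A1. By the adjusted p alone 5 of the 6 were called higher, DCN at only 0.04, and PDGFRA, with 1999 and 2565 counts, was called lower. The split was 4 higher and 2 lower with total counts. The part of these differences in the values of PGD, PGLS, TKT, ME1, IDH1 and MDH1 was not tested.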

How the data were processed

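IMF mRNA was measured in 1 pooled library each of steers and bulls, grouped by the sample titles and treatments. Per the paper's methods, the authors removed adaptors and low-quality Ion Proton reads, mapped the clean reads on the cattle genome with MapSplice and deposited raw counts per gene. How reads were counted, and whether by strand, is not given in the sources used here. The sample labels instead list BWA and a human genome build, so no coordinates are printed. The 4 miRNA libraries of the series hold no mRNA and were not used here.

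Median-of-ratios size factors scaled the counts. Log2 fold changes carry a prior of 0.5 counts. The counts of a gene in both pools entered an exact binomial test (scipy 1.17.1, two-sided, the smaller tail doubled), Benjamini-Hochberg adjusted over all 17752 genes with a count. EBSeq, the study's tool, was not used, but its thresholds were kept. Differences between genes are conditional odds ratios with exact 95% intervals, chosen after the data were seen. Alternatives were total counts, TMM and upper-quartile scaling in edgeR 4.0.16, a minimum of 10 counts, a prior of 5 counts, edgeR exact tests with assumed coefficients of variation, and, chosen after seeing the data, a minimum of 170 counts.

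The 9 genes and all lists were chosen with earlier results of these data known. All 9 genes are named whatever their values, and genes named beside them belong to those lists. Symbols were checked against a RefSeq table of cattle genes (ARS-UCD2.0), which holds all 9, and MPC1, MPC2 and NADK2 were matched there by older symbols. Other enzymes that reduce NADP and are not named were not analysed here.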

Additional observations from a re-analysis of the deposited data

How the results depend on the processing

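The 8 NADPH-supply genes gave 0 calls past 2-fold under every alternative run. By the adjusted p alone, PGD, PGLS, TKT and ME1 were called higher in steers under each scaling and each filter, and IDH1 in all of these but total counts. MDH1 was lost with TMM (0.17, adjusted p = 0.0554 in the exact binomial test) and turned to -0.0515 with total counts, as RPIA turned to -0.11 and ME3 to -0.0565. Instead of 6 genes, 2 were called with an assumed coefficient of variation of 0.1 and 0 with 0.2 or 0.4, since those tests add spread. Over all genes without a fold threshold, 3535 were called higher and 3254 lower. Total counts gave 1862 and 5369, so that 25.8% instead of 52.1% of the calls were higher. Past 2-fold, total counts gave 21.1% higher instead of 34.98%. An assumed coefficient of variation of 0.1 gave 1294 and 1674 without the threshold. With 0.2 it gave 368 and 762 and with 0.4 it gave 52 and 93, by both rules, instead of 772 and 1435 past 2-fold. A minimum of 170 counts left 277 and 507 past 2-fold, with fewer genes tested. Depth limits ME3 and RPIA most, with 94 and 180 counts in steers. No paired analysis was possible because the mRNA data hold 1 library per group and carry no replicate numbers.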
